A study of Mus musculus with 18 samples.

Results

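The course of the cardiac response to lipopolysaccharide (LPS), the bacterial endotoxin, was followed in control hearts by comparing hearts taken 3 h after injection with hearts taken 30 min after it. The comparison used every control array of these times, 6 of the 18 arrays in the series, and no mutant array. Control mice received 0.5 µg LPS in PBS, and their hearts were collected at 3 h (3 arrays) or at 30 min (3 arrays). Control hearts collected 3 h after PBS alone (3 arrays) were used as a further point of comparison. The series holds the same 3 conditions in mice deficient in Kir6.1, a potassium channel subunit encoded by Kcnj8, and those arrays were not used here. The labels give no strain, age or sex of the mice and no route of injection, and they do not spell out for every group that each numbered heart is a separate animal. The p-values therefore measure only how far these arrays differ, part of which can be technical.

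The times were hybridized on different days. All control LPS 3 h and PBS 3 h arrays shared a hybridization day, while all LPS 30 min arrays were hybridized on another day, with another array lot and another fluidics protocol. Time after LPS and hybridization day therefore cannot be told apart in the difference between 3 h and 30 min. LPS 3 h and PBS 3 h shared the day, and their difference is printed beside the main one for part of the genes. Of the 135 genes named by rule, 41 passed in it. The LPS 3 h and PBS 3 h groups differed in array lot and fluidics station, and the comparisons share the LPS 3 h arrays.

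LPS is bound by LBP and CD14 and activates Toll-like receptor 4, which signals through the adaptor MyD88 to NF-kB and the MAP kinases and through a separate adaptor to interferon genes. Immediate early genes, whose transcription needs no new protein synthesis, are switched on within minutes and soon decline. Genes for adhesion molecules, chemokines, acute-phase proteins and interferon-induced proteins follow over hours, together with inhibitors that limit the response, and in the heart the endothelium and the resident macrophages are known LPS-responsive cells.

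Expression is given as the deposited log2 RMA signal, on which a difference of 1 is a doubling, and each gene is represented by its brightest probe set. The LPS 3 h hearts varied more among themselves than the others: the median standard deviation (SD) per probe set was 0.17 after LPS 3 h, 0.09 after LPS 30 min and 0.10 after PBS. The tests used a spread per probe set shared by these groups. For genes that varied mostly among the LPS 3 h hearts, the standard errors and p-values below can therefore be too small. For the control transcripts Gapdh and Actb the signal at the 3' end exceeded that at the 5' end, an index of RNA shortening, by 0.30 to 0.33 on the LPS 3 h arrays, 0.13 to 0.16 on the LPS 30 min arrays and 0.32 to 0.35 on the PBS arrays. The mean of 9 hybridization spike-in probe sets was 10.01 at LPS 3 h, 10.35 at LPS 30 min and 9.94 after PBS, so both quantities moved with the day, and their part in the results was not tested. On the first principal component of the 9 arrays (36.2% of the variance) LPS 3 h replicate 2, on an array lot of its own while LPS 3 h replicates 1 and 3 shared another, lay apart at -58.2, and on the next (24.7%) LPS 3 h replicate 1 lay apart at 57.7.

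Between 3 h and 30 min, 1950 of 45037 probe sets (4.33%) differed at a limma adjusted p under 0.05, of which 708 (1.57%) were higher and 1242 (2.76%) lower at 3 h. On the level of genes 4.22% of 18193 passed: 357 (1.96%) were higher and 410 (2.25%) lower, and the larger changes were mostly gains: 95 genes were higher by at least 1 and 31 were lower by at least 1. The median difference over all genes was -0.01. Higher probe sets made up 36.3% of the calls, 46.8% after quantile normalization and 53.0% with each array centred on its median, so the balance of gains and losses depended on the scaling. Lower calls were dimmer, with a median signal of 5.76 against 7.06 for higher calls, and fewer of them had a single gene symbol (75.8% against 87.6%). The groups' arrays did not overlap for 26.3% of all genes. Counts of list members below are to be read beside these shares, as 1 or 2 calls in a list can be near them.

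Leaving out a single array moved the count widely: 5775, 1659 or 2661 probe sets passed without LPS 3 h replicate 1, 2 or 3, and 394, 318 or 439 without LPS 30 min replicate 1, 2 or 3. Without PBS replicate 1, 2 or 3 the count was 1176, 1180 or 1338. With hybridization day as a random block over all 18 arrays 1 probe set passed, that of Nr4a1, which was lower at 3 h (adjusted p = 0.0011), and every other gene described below lost its call there. Of the 121 named genes past the threshold, 34 stayed past it in each of the 9 fits that left out 1 array. The LPS 3 h hearts differed from the PBS hearts of the same day in 347 probe sets (0.77%), with 120 genes (0.66%) higher and 39 (0.214%) lower. The count of probe sets was 18 to 34 without a PBS array, 59 to 71 without an LPS 30 min array and 6 with only the 6 arrays of that comparison. Of 41 named genes past the threshold against PBS, 6 stayed past it in each of the 9 fits that left out 1 array (Chac1, Fcgr3, Gadd45b, Gbp6, Igtp and Psmb9). For each of the others the call against PBS was lost when at least 1 array was left out. With only the 6 arrays 1 passed, Psmb9.

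**Figure D1:**
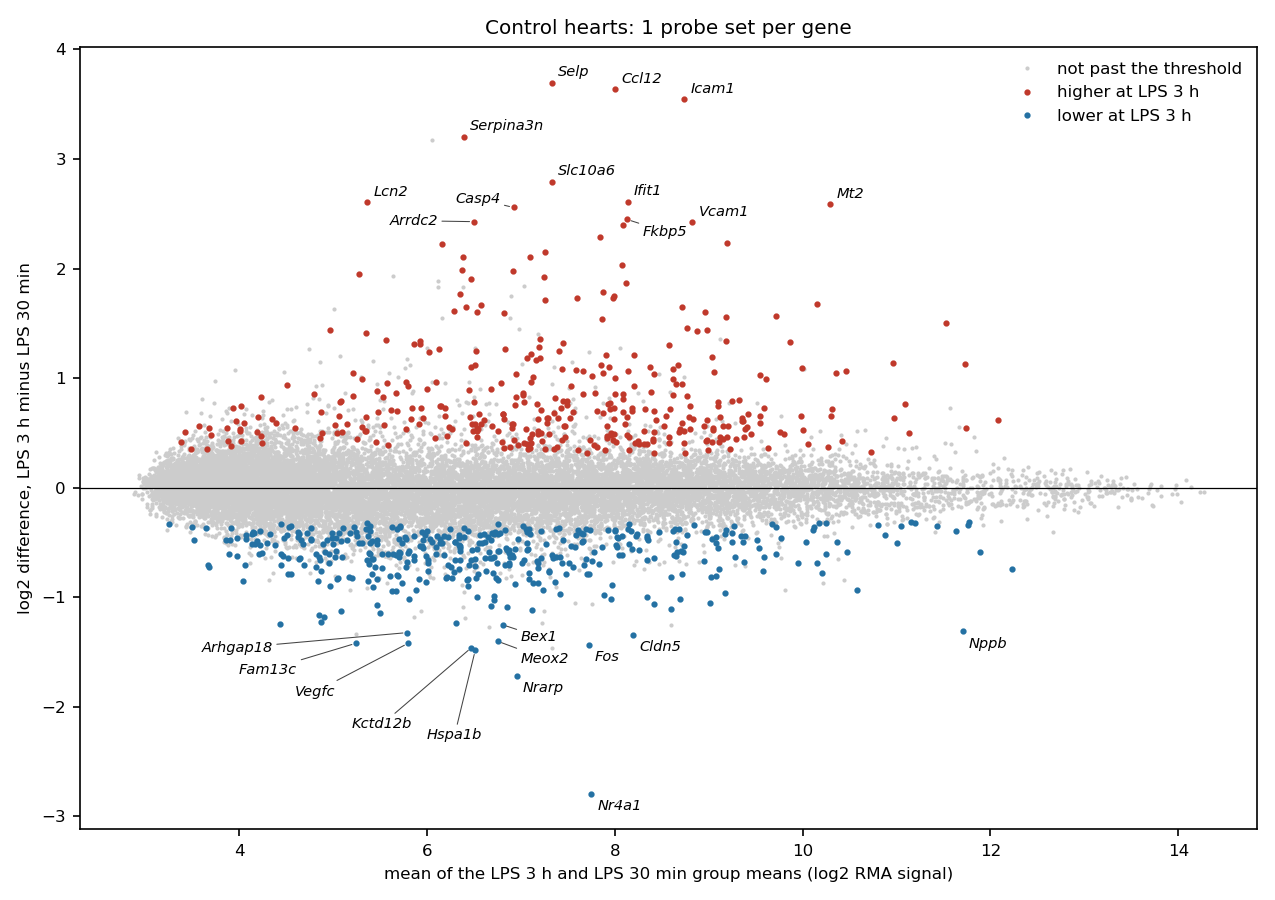
Log2 difference (LPS 3 h minus LPS 30 min, vertical) of 18193 genes against the mean of both group means (log2 RMA signal, horizontal). Red points are the 357 genes higher and blue points the 410 genes lower at LPS 3 h (limma adjusted p under 0.05), grey points did not pass, and the 24 labelled genes lead each direction, with Selp at 3.70 and Nr4a1 at -2.79.

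The genes with the largest gains at 3 h encoded endothelial adhesion molecules and a monocyte attractant. In hearts measured in bulk, a change in the number of cells of a type and a change in RNA per cell cannot be told apart. Selp encodes P-selectin, on which leukocytes roll. Its signal was 11.16, 9.80 and 6.59 in the LPS 3 h hearts, against 5.64, 5.49 and 5.32 in the LPS 30 min hearts. All 3 h values lay above all 30 min values, but replicate 3 was far below the other 3 h hearts. Leading genes, here and below, were picked among genes whose LPS 3 h and LPS 30 min arrays did not overlap. Their lack of overlap is therefore no further result. The difference was 3.70 (standard error, SE, 0.86, 13-fold, limma adjusted p = 0.0433), and the adjusted p reached 0.139 with an array left out. With only the 6 arrays compared, whose spread does not draw on the PBS hearts, it was 0.126. Icam1, the integrin ligand for firm adhesion, had 11.56, 11.09 and 8.88 at LPS 3 h, against 7.0, 6.90 and 6.99 at LPS 30 min. It again had its lowest 3 h value in replicate 3, with no overlap, and differed by 3.55 (SE 0.53, 11.7-fold, adjusted p = 0.0087, at most 0.0515 with an array left out). Vcam1, which binds monocytes and lymphocytes, was higher by 2.43 (SE 0.47, adjusted p = 0.022, at most 0.0971). The PBS means of these genes were 5.29, 7.19 and 7.31, close to their 30 min levels. Icam1 and Vcam1 also stood above the same-day PBS hearts, by 3.32 and 2.72 (adjusted p = 0.0323 and 0.0392), while Selp did not pass against PBS (adjusted p = 0.0712). Of 12 measured adhesion molecule genes these 3 were higher and 0 lower, with a list median of -0.06, and 0 to 1 passed when an LPS 30 min array was left out.

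Chemokine genes, which attract leukocytes, followed the same pattern in part. Ccl12, a monocyte attractant of the mouse, had 10.87, 10.37 and 8.23 at LPS 3 h, against 6.17, 6.26 and 6.12 at LPS 30 min. The difference was 3.64 (SE 0.67, 12.5-fold, adjusted p = 0.0193, at most 0.0818 with an array left out), and its PBS hearts spread from 5.48 to 7.82, the widest PBS range among the leading genes. Ccl12 did not pass against PBS (adjusted p = 0.0621). Of 15 measured CC chemokines 4 were higher and 0 lower (list median 0.51), with Ccl9 at 1.30, Ccl6 at 1.05 and the dim Ccl3 at 0.52. Ccl3 was no higher at LPS 3 h (mean 4.26) than after PBS (mean 4.34), and its 30 min mean was 3.75. Of 12 CXC and CX3C chemokines 2 were higher and 1 lower (list median 0.46). Cxcl9, an attractant of T cells induced by interferon, was higher by 1.92 (SE 0.42, adjusted p = 0.0344), Cxcl11, which shares its receptor, by 0.62, and Cxcl12, a constitutive stromal chemokine, lower by 0.69 on the log2 scale (difference -0.69, adjusted p = 0.0239). With an LPS 30 min array left out, 0 to 1 CC chemokines and 0 of the other list passed, and without LPS 3 h replicate 3 the higher counts were 7 and 5. Chosen after their values were seen, Cxcl10 (9.73, 8.14 and 5.07 at LPS 3 h, against 4.45, 4.63 and 4.33 at LPS 30 min) and Ccl2 (8.49, 7.54 and 5.88, against 5.51, 5.48 and 5.43) did not pass despite differences of 3.18 and 1.83 (adjusted p = 0.0708 and 0.0669), with the lowest 3 h value in replicate 3 in both.

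Cytokine receptors, rather than cytokines, made up most of the 4 higher members of the cytokine list, of 23 measured with 0 lower (list median 0.26). The higher count was 0 to 1 when an LPS 30 min array was left out, 10 without LPS 3 h replicate 1 and 7 without LPS 3 h replicate 3. Il4ra was higher by 1.12 (SE 0.17, adjusted p = 0.0091), Il1r1 by 0.79, Tnfrsf1a by 0.56 and the cytokine gene Il12a by 0.54, at a low signal of 4.28 at LPS 3 h and 3.74 at LPS 30 min. The classical LPS-induced cytokine genes, named here after their values were seen, did not pass. Beside the median of all probe sets, 4.83, Il6 lay below, Tnf near and Il1b above at both times. Tnf had 4.84, 4.95 and 4.77 at LPS 3 h, against 4.48, 4.37 and 4.51 at LPS 30 min (difference 0.40, adjusted p = 0.0839). Il6 had 4.11, 3.69 and 3.46 against 3.50, 3.45 and 3.54 (adjusted p = 0.334), and Il1b had 5.22, 5.36 and 5.14 against 5.62, 5.89 and 5.58 (difference -0.46, adjusted p = 0.113).

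**Figure D2:**
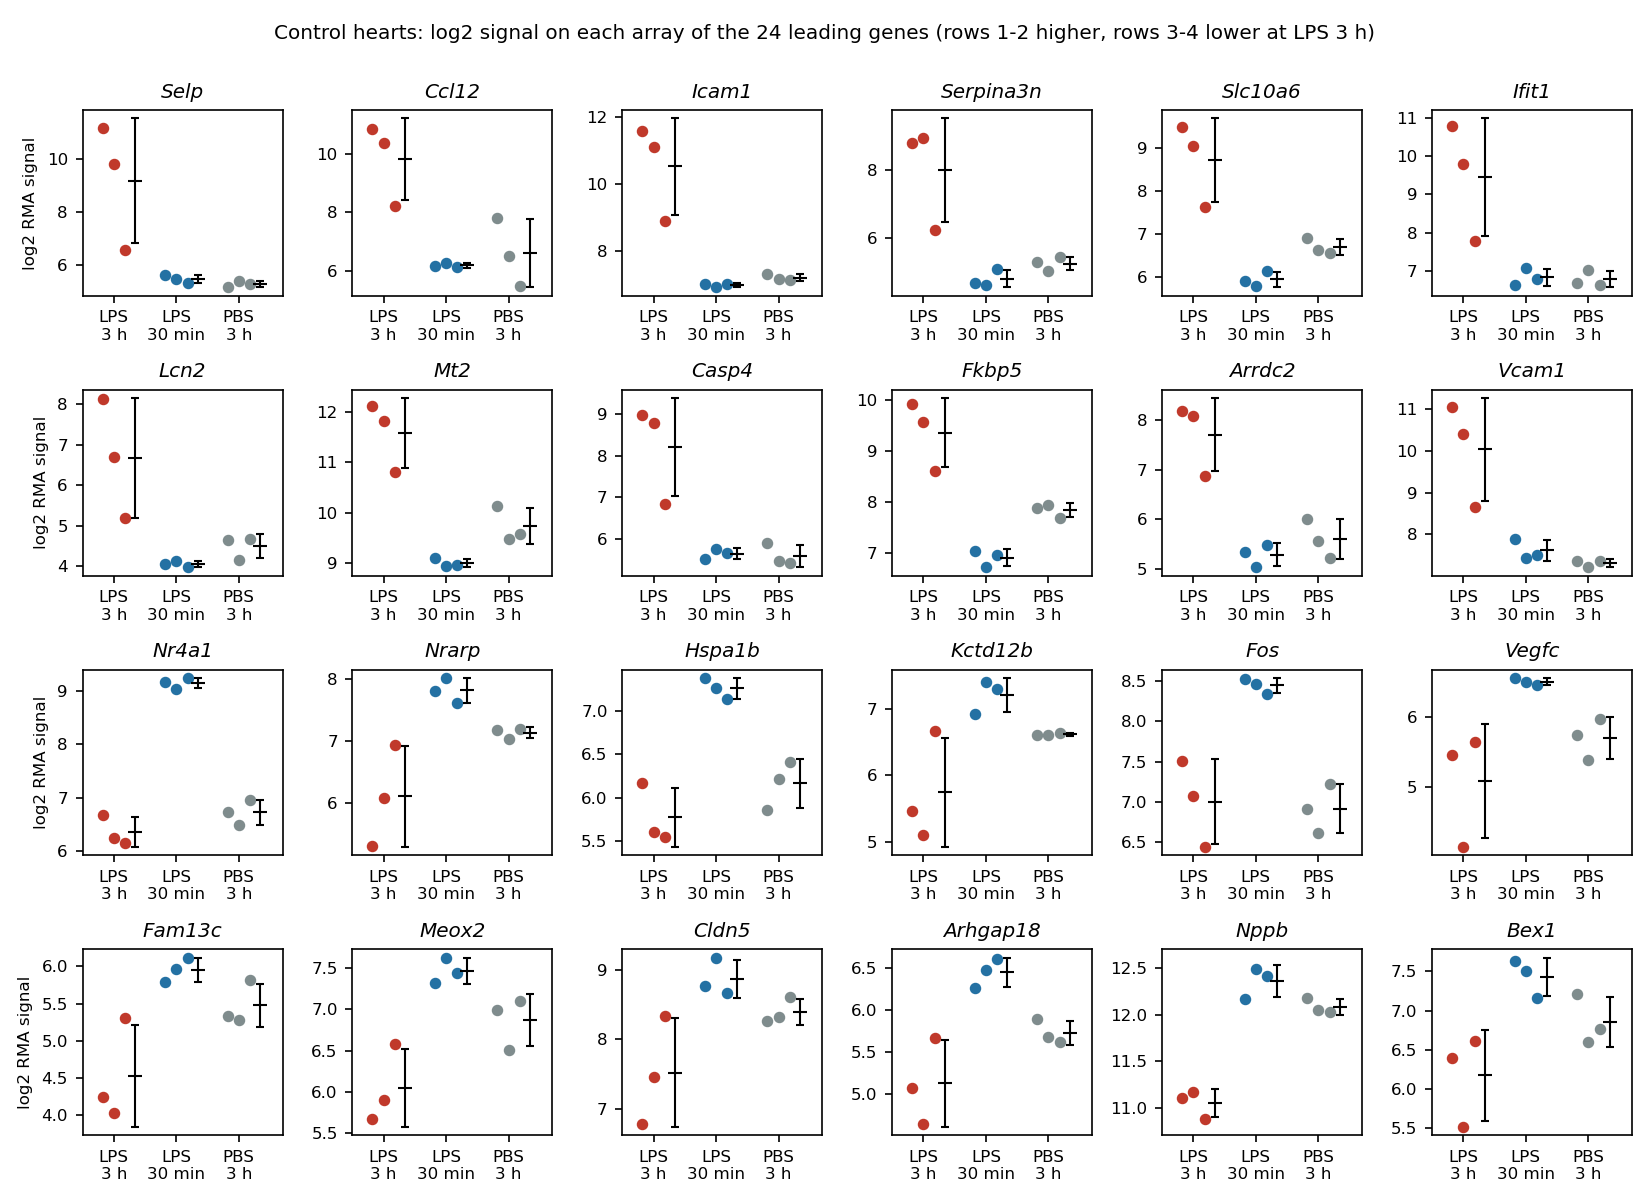
Log2 RMA signal on each array of the 24 leading genes, with LPS 3 h (red), LPS 30 min (blue) and PBS 3 h (grey) side by side in each panel, replicates 1 to 3 from left to right, and the mean ± SD (n = 3) beside the points. In the upper rows LPS 3 h replicate 3 is the lowest of its group in every panel, and in the panel of Nr4a1 the LPS 30 min hearts at 9.04 to 9.24 stand above both other groups.

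The machinery of LPS recognition differed in 5 of 13 measured members, 4 higher and 1 lower (list median 0.50), and in 2, both higher, when an LPS 30 min array was left out. The list median was 0.14 with the mean over all probe sets of a gene and 0.24 with array weights. The array weights leaned on LPS 3 h replicate 3, at 2.27 against 0.25 and 0.28 for replicates 1 and 2. Irak3, an inhibitor of the receptor's kinase complex, had 6.33, 6.19 and 5.65 at LPS 3 h, against 4.77, 4.39 and 4.76 at LPS 30 min. The groups were well apart, with a difference of 1.41 (SE 0.17, 2.65-fold, adjusted p = 0.00409). Lbp, the LPS-binding protein, was higher by 1.17 (SE 0.15, adjusted p = 0.00433). Irak3 and Lbp passed in every fit that left out 1 array, and both stood above the same-day PBS hearts (1.01 and 0.97, adjusted p = 0.0397 and 0.0277). Cd14, the co-receptor that hands LPS on, was higher by 1.32 and Myd88, the main adaptor, by 0.81 (adjusted p = 0.0327 and 0.0345, at most 0.116 and 0.12). Ly96, the LPS-binding partner of Toll-like receptor 4, had 4.87, 4.14 and 4.47 at LPS 3 h, against 5.24, 5.37 and 5.16 at LPS 30 min, a difference of -0.76 (adjusted p = 0.0299) that passed neither with quantile normalization nor with centring. Tlr4 itself, named after its value was seen, differed by -0.12 (adjusted p = 0.567).

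Among NF-kB subunits and their IkB inhibitors 4 of 12 were higher and 0 lower (list median 0.54). With the mean over all probe sets of a gene the list median was 0.38, and with array weights 0.31. Bcl3, a nuclear IkB protein, had 8.05, 7.67 and 6.57 at LPS 3 h, against 5.42, 5.67 and 5.47 at LPS 30 min. It differed by 1.91 (SE 0.30, adjusted p = 0.0109, at most 0.0574 with an array left out). The subunit genes Relb and Nfkb2 of the non-canonical branch were higher by 1.60 and 0.79, and Nfkbib by 0.42 (adjusted p = 0.0354, 0.0388 and 0.0324). Without LPS 30 min replicate 1, 2 or 3 the list had 0, 1 or 0 members past the threshold, with only the 6 arrays compared 0, and 1 without LPS 3 h replicate 2 but 7 without LPS 3 h replicate 3. Of 14 feedback regulators 3 were higher and 0 lower (list median 0.30), and 1 when an LPS 30 min array was left out. Socs3, which blocks cytokine receptor signalling, had 7.92, 7.69 and 6.71 at LPS 3 h, against 5.54, 5.18 and 5.30 at LPS 30 min. Its difference of 2.10 (SE 0.29, 4.29-fold, adjusted p = 0.00582) held in every fit that left out 1 array. Against PBS Socs3 did not pass (adjusted p = 0.0623). The ubiquitin ligase gene Birc3 and the NF-kB inhibitor gene Tnip1 were higher by 1.54 and 1.12 (adjusted p = 0.023 and 0.0439, at most 0.0952 and 0.142). Tnfaip3 and Nfkbia, the best known NF-kB feedback genes and named after their values were seen, had differences of 1.75 and 0.72 that did not pass (adjusted p = 0.0935 and 0.0733).

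Interferon-stimulated genes, which block viral replication in many ways, were higher at 3 h in large number. Of 29 measured antiviral members 9 were higher and 0 lower, and 28 of 29 differences were above 0, with a list median of 0.86 against -0.01 over all genes. Of 9 measured interferon-inducible GTPases, which attack the vacuoles of intracellular microbes, 6 were higher and 0 lower, with all 9 above 0 and a list median of 1.56. Both medians stayed above 0 under every setting tried, at 0.41 or more and 0.90 or more. The counts did not: without any single LPS 30 min array, 0 antiviral genes and 3 GTPases passed, and without LPS 3 h replicate 3, 24 antiviral genes and 9 GTPases.

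Promoters of these genes are shown because many carry the interferon-stimulated response element, a promoter site through which interferons act. The motif was searched as TTTCNNTTTC on both strands in the 300 bases from 250 before to 50 after each gene start, from RefSeq on build GRCm38.p6, and is in capitals, reading GAAANNGAAA where it lies on the other strand. It shares the letters TTTC with the kB motif searched further on.
Ifit1, chr19:34640639-34640938, plus strand: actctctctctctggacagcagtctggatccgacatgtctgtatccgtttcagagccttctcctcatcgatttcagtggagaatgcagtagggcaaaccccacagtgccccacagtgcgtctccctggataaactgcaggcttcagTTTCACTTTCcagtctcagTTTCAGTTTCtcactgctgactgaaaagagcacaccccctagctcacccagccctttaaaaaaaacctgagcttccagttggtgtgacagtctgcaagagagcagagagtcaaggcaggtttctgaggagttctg
Rsad2, chr12:26456403-26456702, minus strand: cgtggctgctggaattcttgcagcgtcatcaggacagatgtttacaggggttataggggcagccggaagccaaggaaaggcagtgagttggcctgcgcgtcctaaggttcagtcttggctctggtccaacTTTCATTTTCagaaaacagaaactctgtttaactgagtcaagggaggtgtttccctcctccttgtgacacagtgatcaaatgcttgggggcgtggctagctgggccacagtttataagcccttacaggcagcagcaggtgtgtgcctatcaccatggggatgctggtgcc
Igtp, chr11:58199306-58199605, plus strand: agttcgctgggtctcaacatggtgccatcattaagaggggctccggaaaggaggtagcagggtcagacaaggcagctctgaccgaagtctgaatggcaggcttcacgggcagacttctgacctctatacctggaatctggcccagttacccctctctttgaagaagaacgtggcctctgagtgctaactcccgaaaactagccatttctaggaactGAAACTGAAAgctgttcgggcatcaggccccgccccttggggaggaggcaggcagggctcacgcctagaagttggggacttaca
Irgm2, chr11:58214727-58215026, plus strand: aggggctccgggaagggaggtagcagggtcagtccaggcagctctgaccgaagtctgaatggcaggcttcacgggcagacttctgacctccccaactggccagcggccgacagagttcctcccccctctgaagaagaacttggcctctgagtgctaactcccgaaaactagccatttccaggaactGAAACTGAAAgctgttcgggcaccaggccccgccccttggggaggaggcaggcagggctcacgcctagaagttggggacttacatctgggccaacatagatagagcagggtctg

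Ifit1 held 2 copies, starting 104 and 85 bases before its start, and Rsad2 held 1 copy 120 bases before its start. The neighbouring GTPase genes Igtp and Irgm2 held 1 copy each in the same letters, 34 and 64 bases before their starts. The motif was present in 3.44% of all 32851 mouse promoters of this length and in 3.63% of the 14452 tested genes with a promoter. It was present in 11 of 21 antiviral genes with a promoter, in 6 of 7 GTPase genes and in 3 of 10 MHC class I genes. Of the members higher at 3 h it was present in 4 of 8 antiviral genes, 3 of 4 GTPase genes and 0 of 6 MHC class I genes. Among all genes with a promoter it was found in 14 of 277 (5.05%) of those higher at 3 h and in 11 of 328 (3.35%) of those lower. A match describes letters only and is no evidence of binding.

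Ifit1, which encodes a protein that binds foreign RNA, had 10.78, 9.78 and 7.77 at LPS 3 h, against 6.64, 7.08 and 6.78 at LPS 30 min. The 3 h hearts were all above the 30 min hearts but spread widely, and the difference was 2.61 (SE 0.58, 6.11-fold, adjusted p = 0.036, at most 0.129 with an array left out). Ifit2, Trim30a, Ifit3 and the ADP-ribosyltransferase gene Parp14 were higher by 2.03, 1.98, 1.79 and 1.75 (adjusted p = 0.0201 to 0.0386). Against PBS Ifit3 passed (adjusted p = 0.048). Ifit1, Ifit2, Trim30a and Parp14 did not (adjusted p = 0.0674, 0.0565, 0.0682 and 0.0521). Rsad2, the antiviral viperin gene, shown for its promoter and chosen after its values were seen, had 11.74, 11.06 and 10.19 at LPS 3 h, against 9.08, 9.50 and 9.38 at LPS 30 min, a difference of 1.68 (adjusted p = 0.0179).

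Among the GTPase genes the calls held more often when an array was left out. Igtp had 10.33, 10.10 and 9.45 at LPS 3 h, against 8.36, 8.44 and 8.40 at LPS 30 min. Irgm2 had 9.01, 8.39 and 7.98 at LPS 3 h, against 6.58, 6.91 and 6.70 at LPS 30 min. Gbp6 had 9.25, 9.23 and 8.69 at LPS 3 h, against 6.99, 7.26 and 7.32 at LPS 30 min. No array overlapped in any of the 3 genes, and replicate 3 was the lowest 3 h heart in each. Igtp differed by 1.56 (SE 0.19, adjusted p = 0.00395), Irgm2 by 1.73 (SE 0.21, adjusted p = 0.0038) and Gbp6 by 1.87 (SE 0.16, adjusted p = 0.000983). These 3 genes passed in every fit that left out 1 array, and they also stood above the same-day PBS hearts, by 1.89, 1.79 and 1.73 (adjusted p = 0.00625, 0.0107 and 0.00435). Ifi47 was higher by 2.40 (SE 0.44) and Gbp2 by 1.60 (SE 0.35), with adjusted p-values of 0.0196 and 0.0359 that reached 0.087 and 0.132 with an array left out.

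Genes of MHC class I peptide loading and the immunoproteasome, which present peptides from inside the cell, had 8 of 12 measured members higher and 0 lower, with a list median of 0.58. The catalytic subunit genes Psmb9 and Psmb8 were higher by 0.86 and 0.85 (SE 0.10 and 0.13, adjusted p = 0.0031 and 0.0087). Psmb9 had 8.40, 8.20 and 8.06 at LPS 3 h, against 7.29, 7.34 and 7.43 at LPS 30 min, and passed in every fit that left out 1 array. The peptide transporter genes Tap1 and Tap2 were higher by 1.24 and 0.73 and Nlrc5, the class I transactivator, by 1.24 (adjusted p = 0.0268, 0.0417 and 0.0271, at most 0.107, 0.149 and 0.109). With each array centred on its median 6 members passed, and 1 to 2 members when an LPS 30 min array was left out. The list median over the 30 min mean was alike on the LPS 3 h hearts, at 0.52, 0.46 and 0.49 on replicates 1, 2 and 3. The mean level of the list still fell, from 9.51 to 9.27 and 9.20. Psmb9, Psmb8, Tap1, Tap2 and Nlrc5 each had a larger difference without replicate 3, at 0.94, 0.98, 1.57, 0.95 and 1.52. The medians of the antiviral list were 1.57, 0.80 and 0.27 and those of the GTPases 2.06, 1.66 and 0.69 on the same arrays. Replicate 3 thus carried the weakest interferon-type response. The difference between the list medians was not tested.

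**Figure D3:**
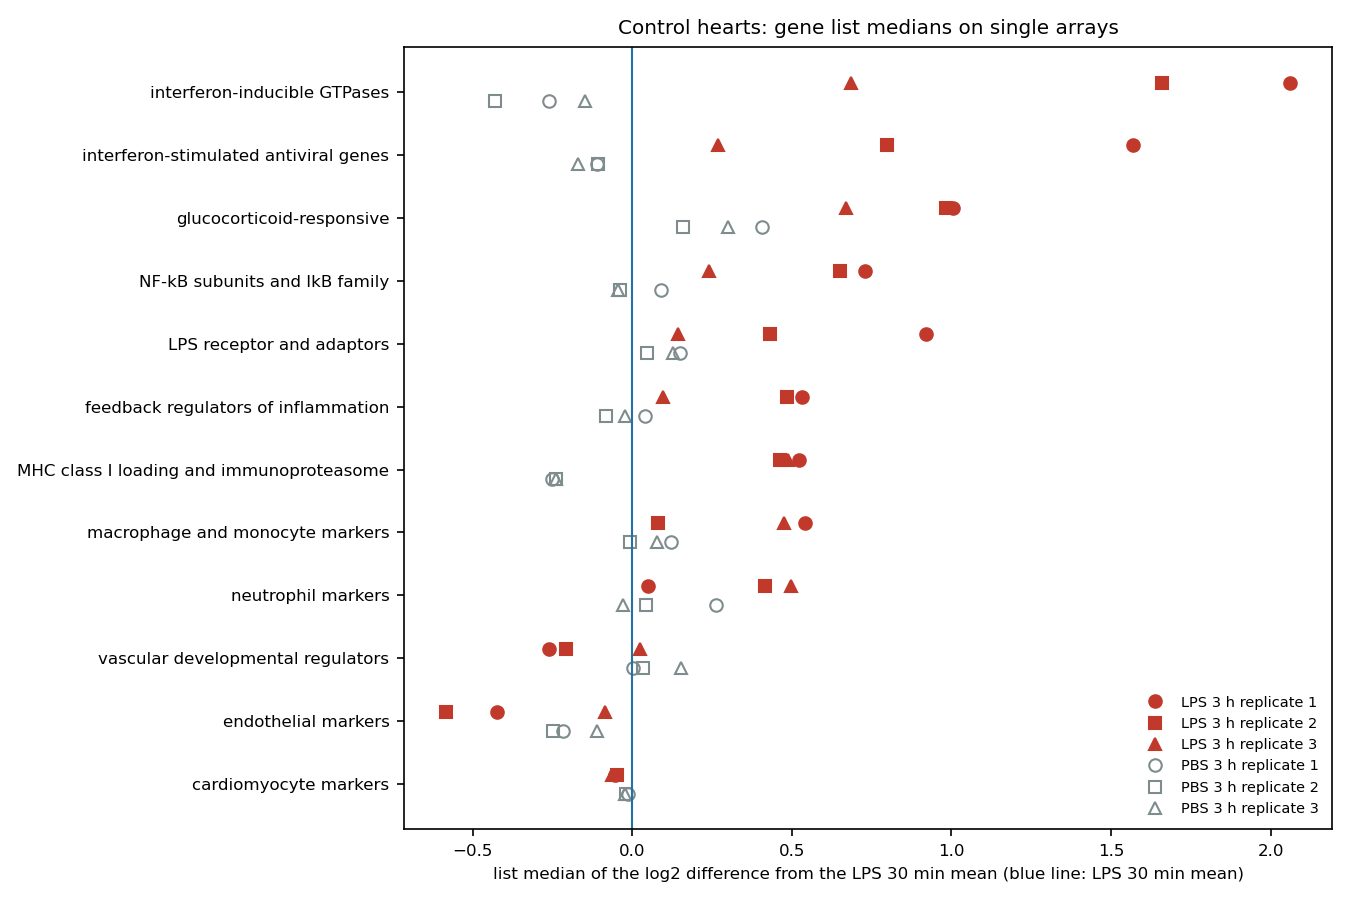
Median over the genes of 12 lists of the log2 difference from the LPS 30 min mean (horizontal), for each LPS 3 h array (red) and each PBS 3 h array (grey), with the replicate given by the marker's shape and the blue line at 0 standing for the LPS 30 min mean. LPS 3 h replicate 3 (triangles) has 0.69 for the interferon-inducible GTPases against 2.06 and 1.66 on the other replicates, while the MHC class I values of 0.46 to 0.52 lie together.

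Among genes of the IL-6 receptor family and its transcription factor STAT3, 4 of 11 were higher and 0 lower (list median 0.30), and 3 passed when an LPS 30 min array was left out. Stat3 had 10.64, 10.64 and 10.35 at LPS 3 h, against 9.36, 9.48 and 9.52 at LPS 30 min. The difference was 1.09 (SE 0.10, adjusted p = 0.0015), while the PBS mean of 10.04 lay between both groups and the excess over PBS was 0.50 (adjusted p = 0.0569). Osmr, the oncostatin M receptor, was higher by 1.73 (SE 0.24, adjusted p = 0.00699) and the kinase genes Pim3 and Pim1 by 1.04 and 0.69 (adjusted p = 0.0031 and 0.0349). Stat3, Osmr and Pim3 passed in every fit that left out 1 array.

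Acute-phase and iron-binding genes had 6 of 16 measured members higher and 0 lower (list median 0.16), and 0 to 1 passed when an LPS 30 min array was left out. Serpina3n, a protease inhibitor, had 8.80, 8.97 and 6.22 at LPS 3 h, against 4.67, 4.61 and 5.08 at LPS 30 min. It differed by 3.20 (SE 0.58, 9.22-fold, adjusted p = 0.0181, at most 0.0836). Lcn2, which binds bacterial siderophores, had 8.13, 6.68 and 5.18 at LPS 3 h, against 4.07, 4.13 and 3.98 at LPS 30 min, a difference of 2.60 (SE 0.55, adjusted p = 0.0319, at most 0.112). In both genes replicate 3 was the lowest 3 h heart and still lay above all 30 min hearts. Neither Serpina3n nor Lcn2 passed against PBS (adjusted p = 0.063 and 0.102). Saa3, Timp1 and Hp were higher by 1.35, 1.29 and 0.72 (adjusted p = 0.0474, 0.014 and 0.0394).

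Metallothioneins, which bind zinc and copper, and zinc transporters had 4 of 11 members higher and 0 lower (list median 0.12), and 2 when an LPS 30 min array was left out. Mt2 had 12.12, 11.83 and 10.81 at LPS 3 h, against 9.09, 8.94 and 8.97 at LPS 30 min. It was among the leading gains, with replicate 3 the lowest 3 h heart and a difference of 2.59 (SE 0.29, 6.01-fold, adjusted p = 0.0031). Mt1 was higher by 1.12 (SE 0.14, adjusted p = 0.00437), and both passed in every fit that left out 1 array. Their 30 min means, 9.0 and 11.16, lay below the PBS means of 9.72 and 11.47, and the gains over the same-day PBS hearts were smaller, 1.86 and 0.82 (adjusted p = 0.0304 and 0.0401). The zinc importer genes Slc39a1 and Slc39a14 were higher by 0.59 and 0.51 (adjusted p = 0.0169 and 0.043).

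Glucocorticoid-responsive genes, which adrenal steroids switch on, had 9 of 16 members higher and 0 lower, the largest share among the pathway lists apart from the GTPases and MHC class I, with a list median of 0.89, and 6 passed when an LPS 30 min array was left out. For several of them the 30 min hearts were the low group. Zbtb16, a zinc finger transcription factor, had 9.22, 9.06 and 8.68 at LPS 3 h, against 6.97, 6.25 and 6.87 at LPS 30 min. The PBS hearts, at 8.52, 8.79 and 8.98, were level with the 3 h hearts (0.23 between LPS 3 h and PBS, adjusted p = 0.638) and the 30 min mean lay 2.06 below the PBS mean. The 3 h minus 30 min difference was 2.29 (SE 0.21, 4.90-fold, adjusted p = 0.00119).

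Fkbp5, a co-chaperone of the glucocorticoid receptor, had 9.91, 9.55 and 8.61 at LPS 3 h, against 7.04, 6.72 and 6.96 at LPS 30 min. The PBS hearts, with 7.89, 7.94 and 7.68, lay between the LPS groups without overlap. The difference was 2.45 between the times (SE 0.27, adjusted p = 0.00277) and 1.52 over PBS (adjusted p = 0.041). Cebpd, an acute-phase transcription factor, was higher by 2.23 (SE 0.28, adjusted p = 0.00433) and Map3k6 by 1.77 (SE 0.18, adjusted p = 0.00194), each with a 30 min mean below the PBS mean (8.08 against 8.94, and 5.47 against 6.04). At LPS 3 h Map3k6 passed over PBS and Cebpd did not (adjusted p = 0.0263 and 0.0597). Zbtb16, Fkbp5, Cebpd and Map3k6 passed in every fit that left out 1 array, and Lcn2 and Pdk4, counted also in other lists, were further higher members. Among the leading genes outside the list, Slc10a6, a carrier of sulphated steroids, was higher by 2.79 (SE 0.38, 6.93-fold, adjusted p = 0.00546) and Arrdc2, an arrestin-domain gene, by 2.43 (SE 0.32, adjusted p = 0.00539), both in every such fit. The 30 min and PBS hearts differed in time after injection, treatment and hybridization day, so differences between them were not tested. Of 18 circadian clock genes 0 passed in limma (list median 0.05). Without LPS 3 h replicate 1, 2 were lower, without LPS 3 h replicate 2, 1 was higher, with array weights 1 was higher and 3 were lower, and 1 was higher against PBS. Arntl had a difference of -0.71 (adjusted p = 0.124) and Npas2 of -0.55 (adjusted p = 0.0804).

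**Figure D4:**
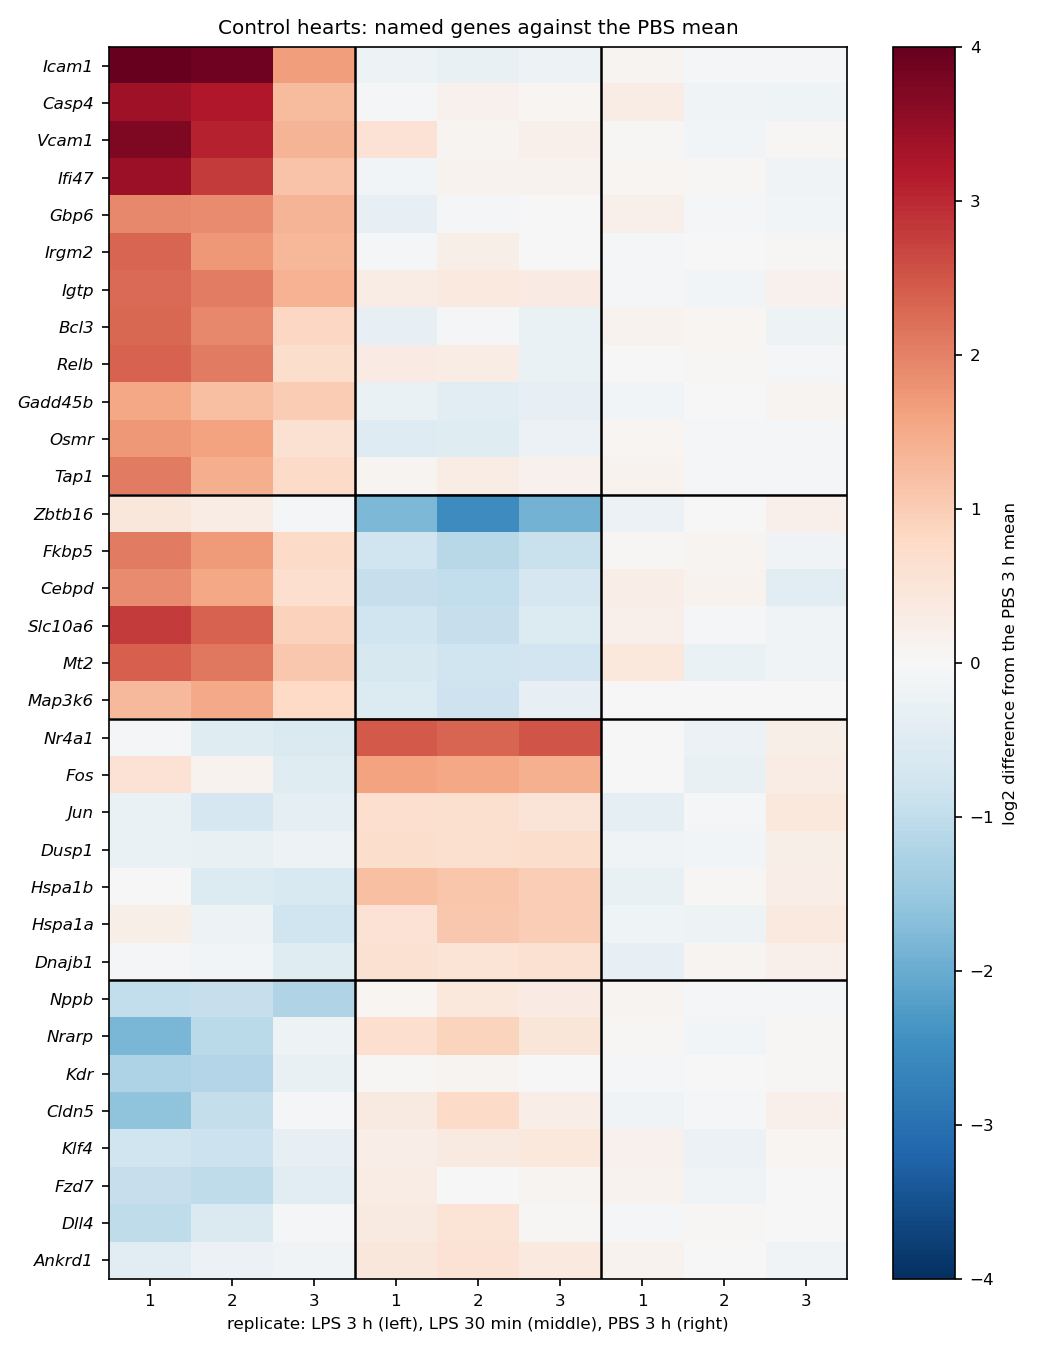
Log2 difference from the PBS 3 h mean (colour, red above and blue below) of 33 named genes on each array, with LPS 3 h on the left, LPS 30 min in the middle and PBS 3 h on the right. From top to bottom the blocks hold genes high at LPS 3 h, genes with LPS 30 min below PBS such as Zbtb16, genes high at LPS 30 min such as Nr4a1, and genes low at LPS 3 h such as Nppb; the blocks were formed after the values were seen.

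The genes lower at 3 h included immediate early genes whose signal was high in the 30 min hearts and near the PBS level at 3 h. Nr4a1, an orphan nuclear receptor induced within minutes by many stimuli, had 6.67, 6.24 and 6.15 at LPS 3 h, against 9.16, 9.04 and 9.24 at LPS 30 min. The groups were far apart and tight, and the PBS hearts had 6.72, 6.49 and 6.95. The difference was -2.79 (SE 0.15, 6.94-fold lower, adjusted p = 0.000123). Its adjusted p was at most 0.003 with an array left out, and it was the gene that passed with hybridization day as a random block. The 30 min mean lay 2.43 above the PBS mean, and LPS 3 h and PBS differed by -0.37 (adjusted p = 0.278). Of 16 members of its list it was the only one past the threshold (list median -0.14), and its relatives Nr4a2 and Nr4a3, named after their values were seen, both had differences of -0.11.

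Of 11 AP-1 and ATF members 2 were lower and 1 higher (list median -0.01, and 0.02 with each array centred), and none passed when an LPS 30 min array was left out. Fos, a subunit of the AP-1 factor, had 7.50, 7.07 and 6.45 at LPS 3 h, against 8.52, 8.46 and 8.34 at LPS 30 min. It differed by -1.43 (SE 0.24, adjusted p = 0.0129, at most 0.0662), and its 3 h mean of 7.01 was close to the PBS mean of 6.92. Jun, its partner, differed by -1.05 (SE 0.18, adjusted p = 0.0161, at most 0.0783), with 8.67, 8.26 and 8.55 at LPS 3 h, against 9.60, 9.58 and 9.45 at LPS 30 min. Neither Fos nor Jun at LPS 3 h passed against PBS (adjusted p = 0.895 and 0.271). Batf, an AP-1 factor of immune cells, was higher by 0.55 (adjusted p = 0.0139) and higher than after PBS by 0.69 (adjusted p = 0.0195). Egr1 and Atf3, named after their values were seen, had differences of -0.57 and -0.61 with overlapping arrays (adjusted p = 0.114 and 0.178).

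MAP kinase feedback genes, which switch off the kinases upstream of these factors, had 4 of 13 members lower and 0 higher (list median -0.15). Centring each array gave 2, and leaving out an LPS 30 min array gave 1 to 2. Dusp1, a phosphatase of p38 and JNK, had 10.09, 10.06 and 10.18 at LPS 3 h, against 11.07, 11.02 and 11.05 at LPS 30 min. Both groups were tight and far apart, with a difference of -0.94 (SE 0.11, adjusted p = 0.00295) that held in every fit that left out 1 array. The PBS hearts had 10.22, 10.27 and 10.60. Dusp5, Dusp10 and Spry4 differed by -0.61, -0.51 and -0.47 (adjusted p = 0.0272, 0.023 and 0.0284). Dusp1, Dusp5, Dusp10 and Spry4 did not pass against PBS (adjusted p = 0.272, 0.124, 0.16 and 0.588).

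The Dusp1 promoter is shown because it holds the palindromic cyclic AMP response element TGACGTCA, a site bound by CREB and ATF factors, 143 bases before the gene start (in capitals, RefSeq, build GRCm38.p6).
Dusp1, chr17:26508423-26508722, minus strand: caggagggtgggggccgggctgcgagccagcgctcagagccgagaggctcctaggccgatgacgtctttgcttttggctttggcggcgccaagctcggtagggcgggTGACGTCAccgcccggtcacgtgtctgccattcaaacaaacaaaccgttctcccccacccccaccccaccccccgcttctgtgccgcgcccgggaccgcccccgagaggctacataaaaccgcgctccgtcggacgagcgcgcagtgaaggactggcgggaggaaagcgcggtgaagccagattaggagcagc

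This element, which reads the same on both strands, occurred in 1.79% of all promoters and in 2.92% of the tested genes with a promoter. It was found in 18 of 328 (5.49%) genes lower at 3 h and in 6 of 277 (2.17%) genes higher at 3 h. Of the 3 lower MAP kinase feedback genes with a promoter, 1 held it, Dusp1.

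Heat shock proteins and chaperones, which refold damaged proteins, had 4 of 15 members lower and 0 higher (list median -0.19), and 1 to 2 when an LPS 30 min array was left out. Hspa1b, an inducible Hsp70, had 6.16, 5.60 and 5.55 at LPS 3 h, against 7.38, 7.26 and 7.14 at LPS 30 min. The difference was -1.49 (SE 0.18, 2.80-fold lower, adjusted p = 0.0038) and held in every fit that left out 1 array, with a 3 h mean of 5.77, a 30 min mean of 7.26 and a PBS mean of 6.16. Its near-identical neighbour Hspa1a differed by -1.12 (adjusted p = 0.039), the Hsp70 partner Dnajb1 by -0.81 (adjusted p = 0.0188) and the Hsp90 gene Hsp90aa1 by -0.59 (adjusted p = 0.0224). Probes of Hspa1a and Hspa1b may pick up both transcripts, so these genes are not independent. At LPS 3 h Hspa1b, Hspa1a, Dnajb1 and Hsp90aa1 did not pass against PBS (adjusted p = 0.323, 0.686, 0.515 and 0.334). The heat shock element, searched as GAANNTTCNNGAA on both strands, was present in 0.603% of all promoters, in 4 of 12 chaperone genes with a promoter and in 0 of the 3 lower ones. In the unfolded protein response list, which covers stress of the endoplasmic reticulum, 3 of 13 were higher and 0 lower (list median -0.06). Chac1, a glutathione-degrading enzyme, had 7.40, 7.46 and 7.55 at LPS 3 h, against 6.18, 6.10 and 6.33 at LPS 30 min, a difference of 1.27 (SE 0.09, adjusted p = 0.000396) that held in every such fit. It also stood 0.88 above PBS (adjusted p = 0.00625). Herpud1 was higher by 0.77 (adjusted p = 0.00691), and Calr by 0.50 (adjusted p = 0.0207) with means of 11.38 at LPS 3 h and 10.88 at LPS 30 min, both below the PBS mean of 11.63.

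Several genes of blood vessels were lower at 3 h. Of 17 hypoxia and angiogenesis genes 5 were lower and 0 higher, with a list median of -0.02 (0.02 with quantile normalization and 0.01 with centring), and of 29 vascular developmental regulators 4 were lower and 0 higher (list median -0.10). With quantile normalization 3 members passed in each list. Without LPS 30 min replicate 1, 2 or 3 the first list had 0 in each case and the vascular regulators 0, 1 or 0.

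Nrarp, a feedback inhibitor of Notch signalling, had 5.30, 6.07 and 6.93 at LPS 3 h, against 7.82, 8.02 and 7.61 at LPS 30 min. The 3 h hearts were all lower, replicate 3 the least so, and the difference was -1.72 (SE 0.32, 3.29-fold lower, adjusted p = 0.0193, at most 0.0912). The Notch ligand gene Dll4 and the Notch target Heyl differed by -0.86 and -0.76 (adjusted p = 0.0498 and 0.0248), the Wnt receptor gene Fzd7 by -0.94 (adjusted p = 0.0117) and the netrin receptor gene Unc5b by -0.58 (adjusted p = 0.0492). Fzd7 was also lower than after PBS, by 0.80 on the log2 scale (difference -0.80, adjusted p = 0.0489). Nrarp, Dll4, Heyl and Unc5b did not pass against PBS (adjusted p = 0.156, 0.247, 0.0959 and 0.297).

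Vegfc, the growth factor of lymphatic vessels, had 5.46, 4.15 and 5.66 at LPS 3 h, against 6.56, 6.50 and 6.47 at LPS 30 min, a difference of -1.42 (SE 0.33, adjusted p = 0.0408, at most 0.135). Apln, Angpt2 and Vegfa differed by -0.65, -0.61 and -0.57 (adjusted p = 0.0283, 0.0153 and 0.0157). Vegfa had means of 8.54 at LPS 30 min and 8.56 after PBS, and it was lower at 3 h than after PBS as well (-0.59, adjusted p = 0.0373). Vegfc, Apln and Angpt2 did not pass against PBS (adjusted p = 0.392, 0.39 and 0.0622). Of 12 endothelial markers 2 were lower and 0 higher, with a list median of -0.39 and all 12 differences below 0. They were Cldn5, a tight junction protein, at -1.34 (SE 0.32, adjusted p = 0.0442, at most 0.164) and Kdr, the main VEGF receptor, at -0.96 (adjusted p = 0.0311, at most 0.121). Kdr had 8.37, 8.44 and 9.29 at LPS 3 h, against 9.65, 9.72 and 9.60 at LPS 30 min and 9.53, 9.61 and 9.66 after PBS, so replicate 3 was again closest to the other groups. Neither Cldn5 nor Kdr passed against PBS (adjusted p = 0.218 and 0.074). Pecam1, another defining endothelial gene named after its value was seen, differed by -0.07 (adjusted p = 0.749). Of the endothelial list 0 passed when an LPS 30 min or a PBS array was left out and 4 or 7 were lower without LPS 3 h replicate 1 or 3. The median of this list was -0.23 for LPS 3 h minus PBS and 0.18 for LPS 30 min minus PBS, and the latter was not tested.

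Other leading lower genes were Meox2, a homeobox gene of vessels and muscle (-1.40, adjusted p = 0.0117), Arhgap18 (-1.32, adjusted p = 0.0129), Fam13c (-1.42, adjusted p = 0.0261), Kctd12b (-1.46, adjusted p = 0.0355) and Bex1 (-1.25, adjusted p = 0.0317). Each had a PBS mean between the 3 h and the 30 min mean, and none of these 5 passed against PBS or in every fit that left out 1 array. Of 11 Kruppel-like factors 2 were lower and 2 higher (list median 0.13). Klf4 and Klf2, both known as regulators of the endothelial response to blood flow, differed by -1.02 (SE 0.15, adjusted p = 0.00845) and -0.55 (adjusted p = 0.0175). Against PBS neither passed (adjusted p = 0.079 and 0.652). Klf13 and Klf15, a glucocorticoid-induced metabolic regulator in the heart, were higher by 0.72 and 0.63 (adjusted p = 0.00684 and 0.0369). Klf4 and Klf13 passed in every fit that left out 1 array.

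**Figure D5:**
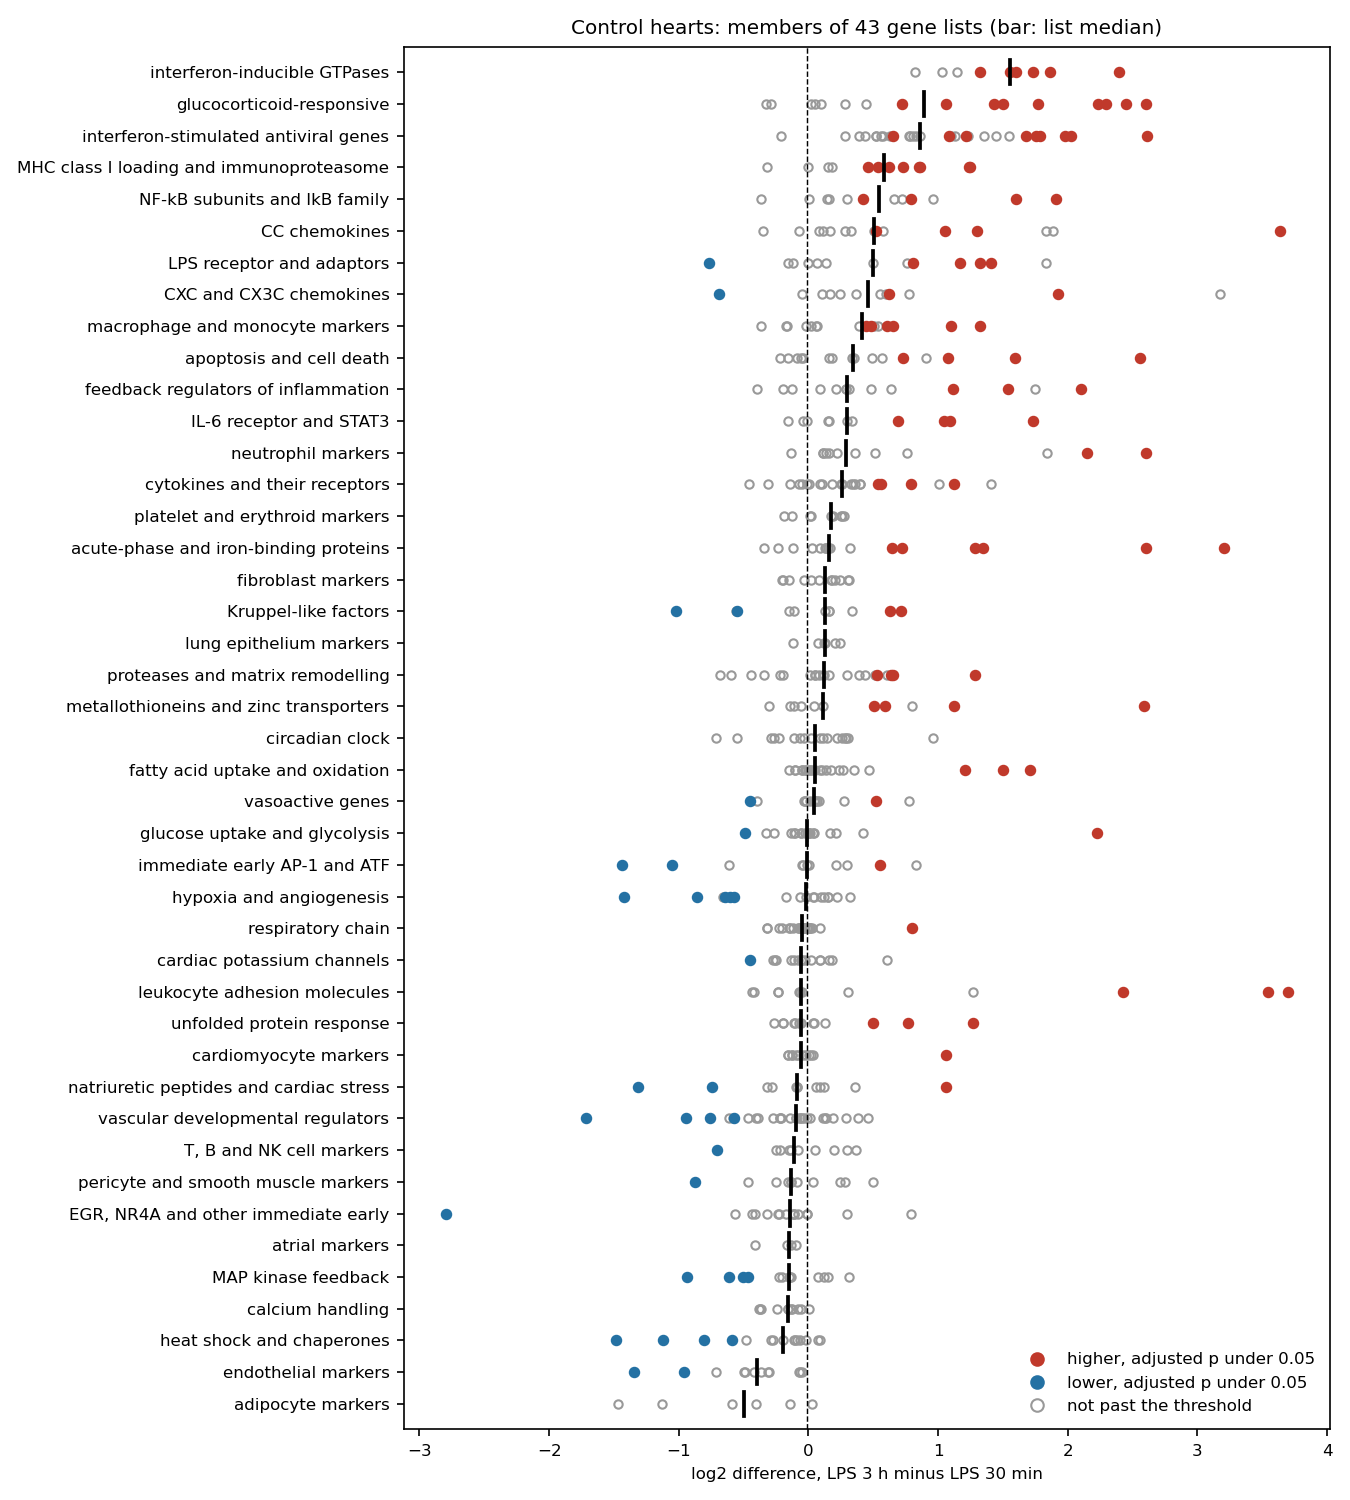
Log2 difference (LPS 3 h minus LPS 30 min) of each measured gene of 43 lists, sorted by the list median (black bar). Red points are higher and blue points lower at LPS 3 h (limma adjusted p under 0.05) and open points did not pass; the interferon-inducible GTPases have the highest median at 1.56 and the adipocyte markers the lowest at -0.49.

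Among cardiomyocyte genes the natriuretic peptide gene Nppb stood out. Nppb, which encodes BNP, a hormone released by strained heart muscle, had 11.10, 11.17 and 10.88 at LPS 3 h, against 12.17, 12.50 and 12.41 at LPS 30 min and 12.18, 12.05 and 12.03 after PBS. All 3 h hearts lay below all others. The difference was -1.31 (SE 0.11, 2.48-fold lower, adjusted p = 0.000983) against 30 min and -1.04 (adjusted p = 0.00729) against the same-day PBS hearts, and the first held in every fit that left out 1 array. Nppa, its atrial relative, named after its value was seen, differed by -0.10 (adjusted p = 0.67). The strain-responsive Ankrd1 differed by -0.74 (SE 0.11, adjusted p = 0.00704) and did not pass against PBS (adjusted p = 0.251). Myh7, the slow myosin heavy chain, had 8.59, 8.72 and 8.72 at LPS 3 h, against 7.80, 7.45 and 7.58 at LPS 30 min, a difference of 1.06 (SE 0.10, adjusted p = 0.00177). Its PBS mean of 8.31 was nearer the 3 h mean, and LPS 3 h and PBS differed by 0.36 (adjusted p = 0.14). Of 12 natriuretic and stress genes 1 was thus higher and 2 lower (list median -0.09).

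Few ion handling genes passed. None of 11 calcium handling genes passed (list median -0.16), with the channel subunit Cacnb2 at -0.38 (adjusted p = 0.06) and the junctional protein Trdn at -0.24 (adjusted p = 0.14). Of 16 cardiac potassium channel genes 1 was lower and 0 higher, Kcnj3, a channel subunit opened by vagal signals, at -0.45 (adjusted p = 0.0443), and 0 were with each array centred on its median. Over all genes 4.22% passed, and Kcnj3 did not pass against PBS (adjusted p = 0.694). Kcnj8, the gene altered in the mutants and named after its value was seen, had 8.35, 8.77 and 8.83 at LPS 3 h, against 8.77, 8.90 and 8.69 at LPS 30 min, a difference of -0.14 (adjusted p = 0.574).

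A few fuel metabolism genes passed. Of 23 fatty acid genes 3 were higher and 0 lower (list median 0.05), and 1 to 2 when an LPS 30 min array was left out. Pdk4, which blocks glucose oxidation, had 12.18, 12.44 and 12.22 at LPS 3 h, against 10.12, 11.04 and 11.16 at LPS 30 min, a difference of 1.5 (SE 0.34, adjusted p = 0.0396, at most 0.133). Angptl4, an inhibitor of lipoprotein lipase, was higher by 1.71 (SE 0.24, adjusted p = 0.00708), in every fit that left out 1 array and also over PBS (1.31, adjusted p = 0.0473). Ucp3, a mitochondrial carrier, was higher by 1.21 (adjusted p = 0.014). The PBS hearts of Pdk4 reached 12.31 in replicate 3, within the 3 h range. Of 19 glucose genes 1 was higher and 1 lower: Pfkfb3, an activator of glycolysis, had 8.39, 7.67 and 5.77 at LPS 3 h, against 5.03, 5.09 and 5.04 at LPS 30 min (2.23, adjusted p = 0.0391, at most 0.128), and the transporter gene Slc2a1 differed by -0.49 (adjusted p = 0.0212). Neither passed against PBS (adjusted p = 0.0521 and 0.897). In the respiratory chain list 1 of 24 was higher, the regulator gene Ppargc1a at 0.80 (adjusted p = 0.0261), with means of 9.73 at LPS 3 h, 8.93 at LPS 30 min and 9.79 after PBS. Over all genes 4.22% passed, so 1 call of 24 lay near that share.

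Cell death genes had 4 of 16 members higher and 0 lower (list median 0.34), and 2 when an LPS 30 min array was left out. Casp4, the caspase that detects LPS in the cytosol, had 8.98, 8.79 and 6.84 at LPS 3 h, against 5.51, 5.76 and 5.66 at LPS 30 min. All 3 h hearts were higher, with a difference of 2.56 (SE 0.45, 5.89-fold, adjusted p = 0.0163, at most 0.0774), and Casp4 stood 2.61 above PBS (adjusted p = 0.0398). Gadd45b, a stress gene of the NF-kB programme, had 7.90, 7.58 and 7.37 at LPS 3 h, against 6.09, 5.94 and 6.04 at LPS 30 min. Its difference of 1.59 (SE 0.13, adjusted p = 0.000854) held in every fit that left out 1 array, and it stood 1.26 above PBS (adjusted p = 0.00629). Gadd45g was higher by 1.07 (adjusted p = 0.00506) and Mlkl, the effector of necroptosis, by 0.73 (adjusted p = 0.0302).

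The Casp4 promoter is shown for its kB sites, the letters bound by NF-kB, searched as GGGNNTTTCC on both strands and printed in capitals (RefSeq, build GRCm38.p6). It is 1 of 2 starts listed for the gene.
Casp4, chr9:5308599-5308898, plus strand: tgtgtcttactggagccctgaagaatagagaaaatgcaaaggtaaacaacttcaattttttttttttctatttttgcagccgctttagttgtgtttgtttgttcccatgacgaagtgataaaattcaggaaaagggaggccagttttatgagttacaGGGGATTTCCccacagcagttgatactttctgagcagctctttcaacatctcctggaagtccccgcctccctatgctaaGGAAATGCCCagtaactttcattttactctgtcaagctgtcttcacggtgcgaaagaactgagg

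The matches started 93 and 14 bases before the gene start, the second on the minus strand. The motif was present in 1.63% of all promoters, in 1.89% of the tested genes with a promoter, in 8 of 277 (2.89%) genes higher at 3 h and in 8 of 328 (2.44%) lower ones. It was present in 3 of 9 CXC and CX3C chemokine genes with a promoter and in 3 of 9 NF-kB and IkB genes, but among the members higher at 3 h in 0 of 1 and 1 of 3.

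Of 22 protease and matrix genes 4 were higher and 0 lower (list median 0.12), and 1 when an LPS 30 min array was left out. Timp3, a metalloprotease inhibitor, had at least 10.58 in each LPS 3 h heart and averaged 9.97 ± 0.03 at LPS 30 min (SD, n = 3), a difference of 0.65 (SE 0.08, adjusted p = 0.00351) that held in every fit that left out 1 array. Timp1, listed also among the acute-phase genes, was higher by 1.29 (adjusted p = 0.014), the crosslinking enzyme gene Tgm2 by 0.64 (adjusted p = 0.0388) and the hyaluronan synthase gene Has1 by 0.53 (adjusted p = 0.0408). Of 14 vasoactive genes Ptgis, the prostacyclin synthase, was higher by 0.52 (adjusted p = 0.0221) and Agtr1a, an angiotensin receptor, differed by -0.45 (adjusted p = 0.0408), and the others did not pass. Neither Ptgis nor Agtr1a passed against PBS (adjusted p = 0.337 and 0.807).

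Markers of cell types describe what the heart samples held. Levels of different probe sets cannot be ranked, so the labelled tissue was checked only by presence: the 12 measured cardiomyocyte markers had a mean signal of up to 13.01 on the LPS 3 h arrays and of 12.96 to 12.99 on the LPS 30 min arrays. Of these genes only Myh7 passed. Of 16 macrophage and monocyte markers 6 were higher and 0 lower (list median 0.42). Fcgr3, an antibody receptor, had 8.89, 8.98 and 8.91 at LPS 3 h, against 7.73, 7.97 and 7.80 at LPS 30 min. Its groups were tight, with a difference of 1.10 (SE 0.09, adjusted p = 0.000854) in every fit that left out 1 array and an excess of 0.91 over PBS (adjusted p = 0.00587). The complement genes C1qb and C1qc were higher by 0.66 and 0.60 and the mannose receptor gene Mrc1 by 0.48 (adjusted p = 0.0147, 0.0193 and 0.0324), and 1 to 2 of the list passed when an LPS 30 min array was left out. The defining markers Csf1r, Adgre1 and Lyz2, named after their values were seen, differed by 0.02, 0.06 and -0.02 (adjusted p = 0.95, 0.847 and 0.945).

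Of 12 neutrophil markers 2 were higher and 0 lower (list median 0.29), Lcn2 and S100a9, and neither passed when an LPS 30 min array was left out. S100a9, a calcium-binding protein abundant in neutrophils, had 8.44, 7.88 and 8.68 at LPS 3 h, against 6.56, 6.52 and 5.47 at LPS 30 min and 7.21, 6.01 and 5.0 after PBS. The LPS 3 h hearts were all higher, here with replicate 3 at the top, and the difference was 2.15 (SE 0.49, adjusted p = 0.0409, at most 0.148). The mean level of the list was 5.25 to 5.49 at LPS 3 h and 4.48 to 4.68 at LPS 30 min.

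Of 10 T, B and NK cell markers Ms4a1 passed, with a difference of -0.71 at a dim signal (4.09 at LPS 3 h and 4.80 at LPS 30 min, adjusted p = 0.00464). Of 11 pericyte and smooth muscle markers Mcam passed, at -0.87 (adjusted p = 0.0145). Neither Ms4a1 nor Mcam passed against the same-day PBS hearts (adjusted p = 0.531 and 0.926). None of 12 fibroblast, 9 platelet and erythroid, 4 atrial, 6 adipocyte or 6 lung epithelium markers passed, with list medians of 0.13, 0.18, -0.15, -0.49 and 0.12. Adipoq, the defining fat gene, had 6.84, 5.27 and 7.70 at LPS 3 h, against 8.23, 7.94 and 8.05 at LPS 30 min and 5.93, 6.45 and 5.45 after PBS, so the fat signal was highest in the 30 min hearts (difference -1.47, adjusted p = 0.122). The lung markers Sftpc and Scgb1a1 lay at 4.96 and 3.82 at LPS 3 h and at 4.76 and 3.69 at LPS 30 min, close to or below the median of all probe sets, 4.83. The part of fat or lung tissue in the other results was not tested.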

How the data were processed

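RNA of each heart was labelled with biotin and hybridized to an Affymetrix Mouse430_2 array, with 1 colour per array. The deposited values are log2 signals from RMA, which corrects background, normalizes between arrays and summarises probes, per the submitters' processing notes. RMA's settings and version were not given in the sources used here. Over the 18 arrays the median of the deposited log2 signals lay between 4.71 and 4.97. Hybridization day, array lot and fluidics protocol were read from the arrays' own experiment files. The number of arrays limits the precision.

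The array holds 45101 probe sets, and its 64 AFFX controls did not enter the tests. Of the 45037 tested, 34945 had 1 gene symbol, 932 several and 9160 none, by the platform annotation, and 34741 matched the gene table. A probe set with several symbols was given no gene name, and a gene was represented by its probe set with the highest mean over the 9 control arrays.

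In R 4.3.3, limma 3.58.1 (lmFit, eBayes; tested on simulated data) fitted 3 group means to the 9 control arrays, with 6 residual and 3.97 prior degrees of freedom. Tests were two-sided, with Benjamini-Hochberg adjustment over all probe sets and a threshold of 0.05. Errors beside differences are standard errors of the fit, whose spread per probe set is shared by the 3 groups.

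Named genes are up to 12 each way by size of the difference, taken from genes past the threshold with no overlap between the groups' arrays and a higher group mean no lower than 4.83, the median over probe sets, leaving out clone names. To these come up to 5 members past the threshold from each list, or the 2 with the smallest p where none passed. The 43 lists hold 649 genes, of which 595 were measured. The comparison, the members and the lists were chosen with earlier results of these data known, so no list is independent evidence of its direction.

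Arrays were not treated as paired by replicate number. Over same-numbered arrays of different groups, deviations from the group means correlated at 0.36 for LPS 3 h and PBS replicate 2. The other same-numbered arrays correlated at -0.06 to 0.02. Alternatives covered the arrays in the fit, scaling, a filter on dim probe sets, day and replicate blocks, array weights, a variance trend and leaving out each array. List medians were also taken with the mean over the probe sets of each gene.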

Additional observations from a re-analysis of the deposited data

How the results depend on the processing

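For the difference between LPS 3 h and LPS 30 min, 1950 probe sets passed. Only the 6 arrays compared gave 537, all 18 arrays 653, 16 arrays without the second-day mutant arrays 3835, hybridization day as a random block 1 (correlation within a day 0.43) and array weights 7831. The array weights of LPS 3 h replicates 1, 2 and 3 were 0.25, 0.28 and 2.27, so that fit leaned on replicate 3. Leaving out 1 array gave 318 to 5775. Quantile normalization (1878), centring (1369), leaving out dim probe sets (2231), the variance trend (2515) and the replicate block (1614) stayed within 1.5 times. For LPS 3 h minus PBS, 347 passed, against 6 with only the 6 arrays compared, 225 with all 18 arrays, 1481 with 16 arrays, 718 without dim probe sets, 126 with the replicate block, 2623 with array weights and 677 with the variance trend. Leaving out 1 array gave 18 to 1735. Fits on 6 arrays or with an array left out have fewer degrees of freedom, and otherwise the cause was not tested.

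Of the 121 named genes past the threshold, 50 kept their call with only the 6 arrays compared, 86 with all 18 arrays, 115 with quantile normalization, 110 with centring, 111 with the replicate block and 40 without LPS 30 min replicate 2. With the day as a random block 1 kept it. Direction turned in 3 cases: Ppargc1a (-0.0129) and Scgb1a1 (-0.796) with day as a random block, and Myl4 (0.0343) with array weights. With the mean over the probe sets of a gene, 37 of 43 list medians moved by less than their SD over the LPS 3 h arrays and 6 by more. With the day as a random block 9 moved by more. The 3 arrays a group limit the precision, and signal over background was not measured here.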
